A study of Mus musculus with 9 samples.

Results

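RNA-Seq of leukemic clones before and after their expansion in the mouse was compared in 6 of the 9 libraries of the study, 3 de novo expanded against 3 pre-malignant, over 14195 genes, those whose normalized counts averaged at least 10. H9M cells are lineage-negative bone marrow cells of C57BL/6-Ly5.1 mice, transformed with 1 gammaretroviral vector for *Meis1* and *Hoxa9* that also carries puromycin resistance. Each line had been edited with Cas9, grew from a single cell and carried a lentiviral color code. All 6 libraries share the edit and the vectors, and all came from frozen splenocytes of lethally irradiated C57BL/6J recipients that had received a mix of color-coded clones with helper bone marrow. The cells were thawed and sorted by color code from a gate of donor-derived cells (CD45.1+ with bright EGFRt) that were cKit+ and CD11bdim/neg. The labels name neither the age nor the sex of the recipients, and they name no further treatment.

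Mouse #15, killed early after transplantation, gave all 3 pre-malignant samples, which were the minor clones with color codes 33BC-D, 38BC-D and 43BC-D. The de novo expanded samples are these color codes at the leukemic endpoint, 38BC-D in mouse #13, 43BC-D in mouse #14 and 33BC-D in mouse #17. Each color code is 1 single-cell-derived line, so the 3 libraries of a group are 3 clones and not repeats of 1 clone. All pre-malignant libraries came from 1 mouse, and the effects of time, of the mouse and of expansion cannot be told apart. A column of the deposited table could be matched to its group and to no single sample, so each group's libraries carry the numbers 1 to 3 in the order of the columns. These numbers name neither a clone nor a mouse. Both groups hold the same 3 color codes, but the labels do not say which columns share one, so every test treats the groups as unpaired. The p-values measure the spread between libraries of a group. These are clones of 1 mouse before expansion, and clones of 3 mice after it. Spread between mice is thus mixed with that between clones in 1 group and absent from the other.

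*Hoxa9* and *Meis1* are homeobox transcription factors whose joint overexpression keeps myeloid progenitors dividing and blocks their maturation. Progenitors of this kind lie on the path to granulocytes and monocytes, where *Cebpe* and *Gfi1* accompany the granulocytic branch and *Irf8*, *Klf4* and *Csf1r* the monocytic branch. Immediate early genes such as *Fos*, *Jun* and *Egr1* are transcribed within minutes of a stimulus, without new protein synthesis, and the feedback genes *Zfp36* and *Dusp1* encode proteins that remove mRNAs and inactivate MAP kinases. The sterol pathway, ribosome production and histone synthesis are programs that proliferating cells use to double their mass and chromatin.

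Reads counted on genes numbered 13178692, 14606389 and 14803007 in pre-malignant libraries 1 to 3, and 11983460, 15551196 and 15311840 in de novo expanded libraries 1 to 3. The sort and vector genes were present in all 6 libraries, with normalized counts of 4405 to 9843 for *Hoxa9*, 7474 to 15746 for *Meis1*, 1992 to 4048 for *Kit* and 390 to 834 for *Itgam*, which encodes CD11b. Counts at *Hoxa9* and *Meis1* do not separate the gene from a cDNA in a vector. Mitochondrial genes took 11.3% to 12.9% of reads in the pre-malignant and 10.6% to 13.1% in the de novo expanded libraries. De novo expanded library 3 stood apart from the other 5. In this library, 821 genes lay at least 2-fold above the highest or below the lowest value of the other 5 libraries, against 76 to 242 genes in each of the others. Pearson's r across genes was 0.968 between de novo expanded libraries 1 and 2, 0.919 and 0.930 between these and library 3, and 0.967 to 0.971 among the pre-malignant libraries. For gene lists whose median moved by over 1.5 times without library 3, the median without it is given below. In the bulk RNA of sorted cells, fewer cells of a type and less RNA per cell cannot be told apart.

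No gene was called between de novo expanded and pre-malignant clones at an adjusted p-value under 0.05 and 2-fold in limma with Benjamini-Hochberg adjustment, so the share called was 0% of 14195 genes. The smallest adjusted p-value was 0.186, shared by 6 genes, among them *Igkv12-41*, *Ccl9*, *Mrap*, *Fnbp1l* and *Cd81*. At an unadjusted p-value under 0.05, 850 genes were higher after expansion (5.99%) and 747 lower (5.26%), 1597 genes together. With a limit of 2-fold these were 109 higher genes (0.768%) and 278 lower genes (1.96%). Of the latter, 202 had a mean under 50 normalized counts and 150 were protein coding. Genes with a read numbered 27896 to 30548 in the pre-malignant and 23537 to 27989 in the expanded libraries. Their part in the lower genes was not tested. The 3 values of a group did not overlap those of the other in 1501 higher genes (10.6%) and 1206 lower genes (8.5%). An exact permutation test of 3 against 3 libraries cannot go below a two-sided p of 0.1.

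On the recovered reads, edgeR's quasi-likelihood test called 0 genes as well, with 1550 at an unadjusted p-value under 0.05. DESeq2 called 64 genes, 32 higher (0.225%) and 32 lower (0.225%), and 62 of them had no overlap between groups. Limma with array weights, which gave library 3 of the de novo expanded clones a weight of 0.27 against 0.79 and 2.56 for the other 2, called 24 genes. Without library 3, in a fit of 2 against 3 libraries, limma called 215 genes, 105 higher (0.74%) and 110 lower (0.775%). In 149 of these 215 genes library 3 itself lay within or beyond the far side of the pre-malignant range. Of the 64 DESeq2 calls, 47 were also called without library 3, and the 24 calls with array weights all were.

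**Figure D1:**
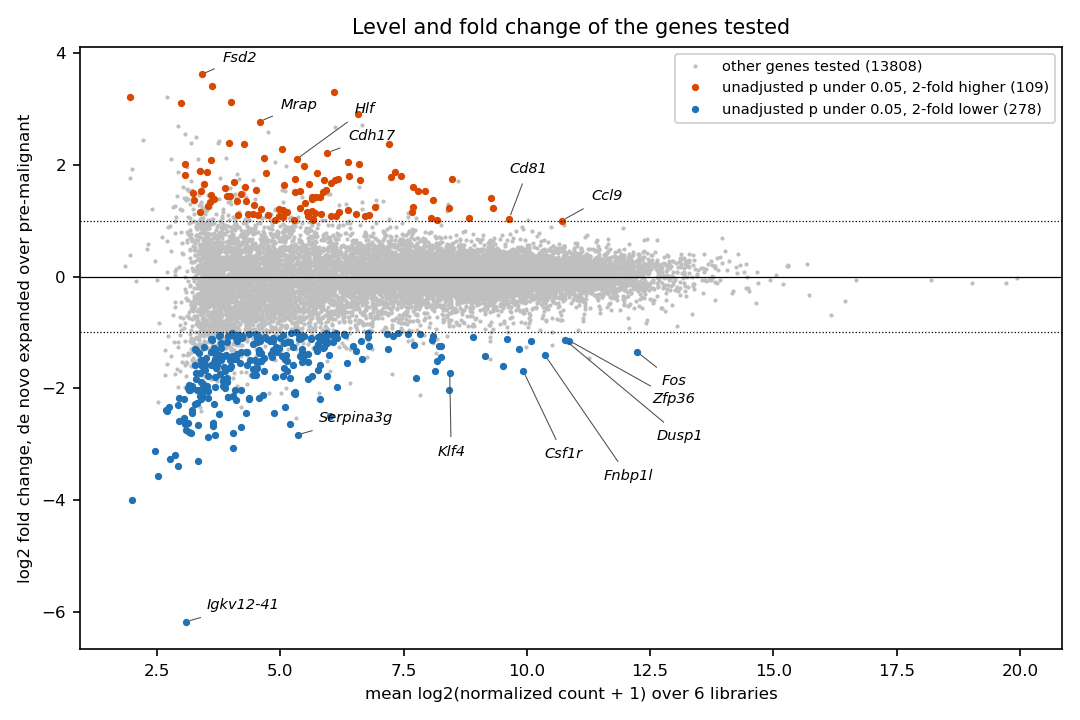
Mean level of the 14195 tested genes (log2 of normalized count + 1 over the 6 libraries) against the log2 fold change of de novo expanded over pre-malignant clones, with dotted lines at 2-fold, 109 genes in orange and 278 in blue that were 2-fold higher or lower at an unadjusted p-value under 0.05, and other genes in grey. Most of the blue genes have low levels, whereas Fos, Zfp36, Dusp1, Fnbp1l, Ccl9 and Cd81 are abundant genes at or beyond 2-fold.

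*Mrap*, which encodes an accessory protein of melanocortin receptors (chromosome 16, 90738207 to 90749785, GRCm38.p6), had 7.48, 8.52 and 8.49 normalized counts in the pre-malignant libraries and 51.6, 70.2 and 64.6 in the de novo expanded libraries. The 3 expanded libraries, library 3 among them, all lay well above the highest pre-malignant value. The means were 8.17 ± 0.592 and 62.1 ± 9.55 (SD, n = 3 each), and the log2 fold change was 2.77 (SE 0.34, limma adjusted p = 0.186, DESeq2 adjusted p = 7.71e-06). The spread within each group was small against the gap between them, which the rule that named *Mrap* by its p-value and lack of overlap favours.

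Further genes were higher in all 3 de novo expanded libraries. *Cdh17*, a cadherin (chromosome 4, 11758147 to 11817895), counted 50.2, 24.6 and 17.0 in the pre-malignant libraries against 99.6, 148 and 156. *Mtss1*, which encodes a protein that bends membranes and binds actin, counted 57.7, 129 and 78.3 against 267, 380 and 285. *Fsd2* was near 0 in the pre-malignant clones, with 0, 4.73 and 3.77 against 34.0, 39.6 and 34.6. Their log2 fold changes were 2.22 (SE 0.43), 1.87 (SE 0.31) and 3.62 (SE 0.73). The groups did not overlap in these 3 genes, beside 10.6% of all genes, and the rule that named *Cdh17* and *Fsd2* required this. The more abundant *Ccl9*, a CC chemokine of myeloid cells (chromosome 11, 83572919 to 83578636), had 1171, 1127 and 1258 normalized counts before and 2503, 2584 and 2062 after expansion, a log2 fold change of 1.00 with an SE of 0.12. *Cd81*, a tetraspanin of the cell surface, counted 608, 544 and 519 against 1026, 1102 and 1318. The log2 fold change of *Cd81* was 1.04 (SE 0.13) and that of *B4galt4*, a galactosyltransferase, was 1.05 (SE 0.16). DESeq2 called each of *Mrap*, *Cdh17*, *Mtss1*, *Fsd2*, *Ccl9*, *Cd81* and *B4galt4*, with adjusted p-values between 3.92e-08 for *Ccl9* and 0.00193 for *Fsd2*.

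The lower genes were led by *Fnbp1l*, which encodes an F-BAR protein that links membrane curvature to actin assembly (chromosome 3, 122538719 to 122619715). It had 1754, 2674 and 2113 normalized counts in the pre-malignant libraries and 840, 693 and 911 in the de novo expanded libraries. The highest expanded value was well below the lowest pre-malignant value. The log2 fold change was -1.41 (SE 0.18, limma adjusted p = 0.186, DESeq2 adjusted p = 2.48e-08). *Serpina3g* and *Serpina3f*, neighbouring genes for serine protease inhibitors on chromosome 12, were lower together. *Serpina3g* counted 119, 64.4 and 163 against 21.1, 23.4 and 5.62, and *Serpina3f* 53.4, 81.4 and 99.1 against 21.1, 9.00 and 15.0. Their log2 fold changes were -2.83 (SE 0.59) and -2.33 (SE 0.42), and the reads of near-identical serpin copies may be split between them.

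The immunoglobulin variable segment *Igkv12-41* had 121, 33.1 and 89.6 normalized counts in the pre-malignant libraries and no read in any de novo expanded library, at least 27.0-fold lower against a floor of 3 reads per library. *Ighv3-6* followed with 35.3, 1.89 and 37.7 against no read, at least 8.30-fold lower. These segments are rearranged and expressed in B cells, whose 12 tested marker genes were all lower, 4 of them at an unadjusted p-value under 0.05 beside 5.26% of all genes. The summed level of that marker list was 3244 to 4095 normalized counts in the pre-malignant libraries and 3296, 2356 and 1119 in the de novo expanded libraries, most of it from *Ighm*. The immunoglobulin constant gene *Ighg2b*, outside that list, went the other way in de novo expanded libraries 1 and 2. It counted 2.14, 0.947 and 7.55 against 284, 37.8 and 4.68. Erythroid markers were lower in 7 of 10 tested genes, although their summed level, which *Tfrc* dominates, was 1279 to 1800 before and 1375 to 1896 after expansion. Among these, *Alas2*, which encodes the first enzyme of heme synthesis in red cells, had 152, 70.1 and 68.9 against 9.38, 23.4 and 11.2, a log2 fold change of -2.65 (SE 0.48). Of macrophage, NK cell and T cell markers, 6 of 6, 3 of 3 and 2 of 2 tested genes were lower. Their summed levels overlapped between the groups, at 1380 to 2951 and 959 to 3659 for macrophages, 160 to 213 and 35.2 to 1024 for NK cells, and 2061 to 2338 and 1612 to 2465 for T cells. In de novo expanded library 3, *Vcam1* gave 2390 of the 3659 and *Nkg7* 1013 of the 1024. These 2 genes were lower in limma and higher in DESeq2 and edgeR, so the counts of lower macrophage and NK cell markers depend on the method. Most of the T cell sum is from *Thy1*, a domain of which the color-code vectors also encode. Whether reads of the vector were counted there was not tested. The part that residual cells of these types have in the lower genes was not tested.

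**Figure D2:**
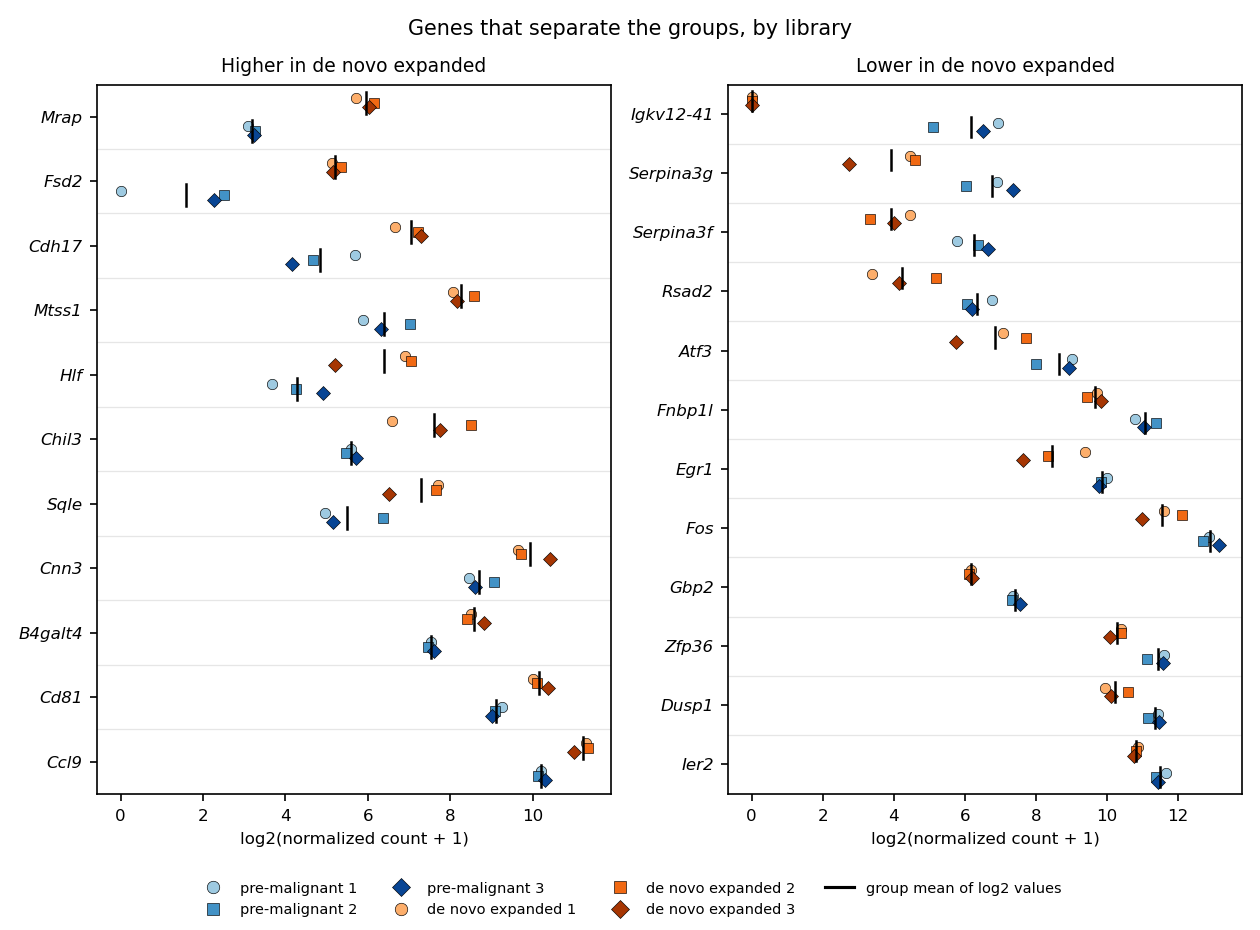
Levels of single genes as log2(normalized count + 1), with 1 point per library (pre-malignant in blue, de novo expanded in orange) and a line at the mean of the log2 values of a group. Mrap, Cdh17 and Ccl9 on the left are higher and Igkv12-41, Fnbp1l and Zfp36 on the right lower in all 3 de novo expanded libraries than in any pre-malignant library.

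Immediate early and AP-1 genes were lower almost throughout. Of 29 tested members, 28, all but *Klf10*, were lower in the de novo expanded clones, 17 of them at an unadjusted p-value under 0.05 beside 5.26% of all genes. The median log2 fold change was -0.75 beside a median of 0.01 over all genes, and 19 members were lower without overlap, beside 8.5% of all genes. Without library 3 the median was -0.65. No gene of the list passed the adjusted threshold in limma. DESeq2 called 7, beside 0.225% of all genes called lower, and limma without library 3 called 7, beside 0.775%. Since the lists were written with earlier results of these data known, these counts are no independent evidence of the direction.

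*Zfp36*, which encodes tristetraprolin, a protein that destabilises cytokine mRNAs (chromosome 7, 28376784 to 28380253), had 3086, 2239 and 3071 normalized counts in the pre-malignant and 1329, 1354 and 1084 in the de novo expanded libraries. *Dusp1*, a MAP kinase phosphatase, counted 2763, 2258 and 2834 against 974, 1540 and 1107. The log2 fold changes were -1.15 (SE 0.16) and -1.14 (SE 0.18), with DESeq2 adjusted p-values of 9.43e-07 and 0.000118. *Fos*, an AP-1 subunit, stood at 7416, 6668 and 9014 against 3093, 4386 and 2007, and *Jun*, its partner, at 13774, 12294 and 13562 against 8210, 6921 and 10006. The *Fos* difference was larger, with log2 fold changes of -1.34 (SE 0.27) for *Fos* and -0.67 (SE 0.14) for *Jun*. *Junb* was lower by less than *Fos*, at -0.89 (SE 0.16), and *Ier2* at -0.68 (SE 0.10) had the smallest spread of these genes, with 3228, 2673 and 2743 against 1861, 1804 and 1731. *Btg2*, an antiproliferative gene and a p53 target, counted 829, 567 and 724 against 275, 299 and 440.

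Other members depended more on library 3. *Klf4*, a zinc finger factor of monocytes, counted 493, 658 and 760 against 232, 452 and 64.6, and its log2 fold change of -1.72 (SE 0.63) was -0.95 without library 3. *Atf3*, a stress-induced bZIP factor, counted 514, 257 and 490 against 135, 209 and 52.4. Its log2 fold change went from -1.81 (SE 0.51) to -1.25 without that library. *Egr1* counted 1021, 907 and 866 against 660, 323 and 197, with a spread among the expanded libraries that exceeded the gap between the groups.

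Promoters of these genes hold the cyclic AMP response element core, TGACGT, through which CREB and ATF factors act, in some members and not in others. The letters TGACGT, read on both strands within 250 bases upstream of the RefSeq start, were present in 6 of the 24 tested members with a promoter sequence (25%), beside 10.8% of the 9195 tested genes with one and 6.56% of all 27025 promoters. A palindromic TGACGTCA counts as a match on each strand. The 6 members were *Fos*, *Dusp1*, *Btg2*, *Atf3*, *Nr4a3* and *Ppp1r15a*, and no match was present in this window of *Zfp36*, *Jun*, *Junb* or *Klf4*. The stretches around the first match in *Fos* (chr12:85473791-85473862, plus strand), *Dusp1* (chr17:26508625-26508696, minus strand), *Btg2* (chr1:134079283-134079354, minus strand) and *Atf3* (chr1:191183334-191183405, minus strand) are shown because the levels of these 4 genes are described above. *Dusp1* had 3 matches within the 250 bases, and only the first lies in the stretch shown. The 4 stretches are from RefSeq on GRCm38.p6, each written 5′ to 3′ on the strand of its gene with the matching letters in capitals.
Fos: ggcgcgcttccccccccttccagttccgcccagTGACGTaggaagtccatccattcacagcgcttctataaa
Dusp1: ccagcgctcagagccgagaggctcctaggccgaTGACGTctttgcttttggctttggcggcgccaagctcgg
Btg2: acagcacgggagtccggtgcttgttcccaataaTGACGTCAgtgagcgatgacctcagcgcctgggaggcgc
Atf3: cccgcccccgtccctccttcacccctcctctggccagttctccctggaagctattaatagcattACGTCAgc

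Genes of the NF-κB pathway, among them the inhibitors that it induces, were mostly lower. Of 17 tested genes of the NF-κB and TNF response, 14 were lower, 6 of them at an unadjusted p-value under 0.05 beside 5.26% of all genes, with a median of -0.32. *Nfkbia*, which encodes the inhibitor IκBα, counted 1086, 1113 and 942 in the pre-malignant libraries against 505, 721 and 659, a log2 fold change of -0.75 (SE 0.16). *Tnfaip3*, the deubiquitinase A20, counted 542, 762 and 655 against 335, 310 and 446, at -0.85 (SE 0.19). In both genes the groups did not overlap. *Sod2*, the mitochondrial superoxide dismutase in the same list, went the other way, at 0.34 (SE 0.12). Of 10 tested myeloid chemokines and cytokines, 8 were lower, with a median of -0.98 that was -0.45 without library 3. The neutrophil attractant *Cxcl2* counted 31.0, 56.8 and 68.9 against 16.4, 16.2 and 3.74, and *Osm*, a cytokine of the IL-6 family, counted 351, 434 and 420 against 260, 274 and 82.4. *Ccl9* and *Il1rn* were the 2 members that were higher.

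Interferon-stimulated genes were lower in 22 of 24 tested members, all but *Ifit2* and *Bst2*, and 8 of them were lower at an unadjusted p-value under 0.05 beside 5.26% of all genes, with a median of -0.68. The list was lower still without library 3, at -0.98, and in that library the median member lay 0.27 above the 6-library mean on the log2 scale. *Gbp2*, a guanylate-binding protein, had the smallest spread, with 162, 159 and 188 against 71.5, 68.4 and 72.1 and a log2 fold change of -1.25 (SE 0.19, DESeq2 adjusted p = 0.000384). *Rsad2*, the antiviral enzyme viperin, counted 108, 65.3 and 72.7 against 9.38, 35.1 and 16.8. *Irf7* counted 304, 184 and 197 against 102, 107 and 183, so library 3 came close to the lowest pre-malignant library. In *Ifih1*, an RNA sensor, libraries 1 and 2 counted 229 and 283 and library 3 counted 534, inside the pre-malignant range of 431 to 577.

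Of the MHC class I genes, 11 of 16 were lower with a median of -0.23 that was -0.15 without library 3. Of these 16, only *H2-Q4* and *H2-K1* had an unadjusted limma p-value under 0.05, beside 5.26% of all genes that were lower at this limit. *H2-Q4* counted 1694, 1658 and 1578 against 1150, 963 and 842, a log2 fold change of -0.75 (SE 0.13, DESeq2 adjusted p = 0.00193). MHC class II genes, which B cells and dendritic cells also carry, were lower in 6 of 10 members, with a median of -0.28 that was -0.45 without library 3. *H2-Aa* counted 79.1, 58.7 and 43.4 against 31.6, 13.5 and 14.0, and *Cd74*, the invariant chain, counted 251, 178 and 265 against 135, 45.0 and 128.

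**Figure D3:**
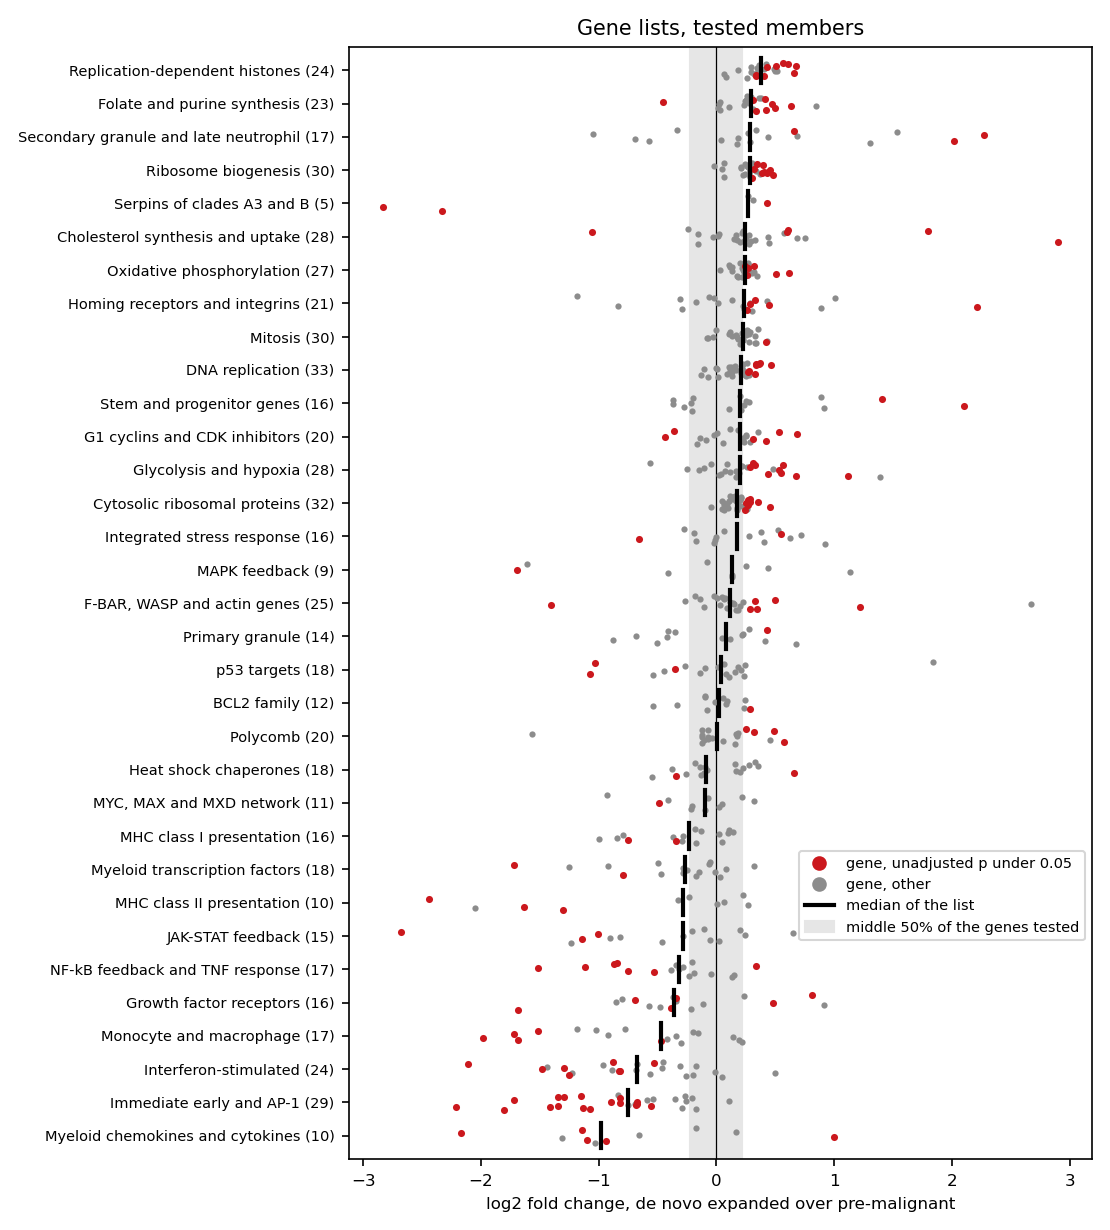
Log2 fold change (de novo expanded over pre-malignant) for the tested members of each gene list (their number in brackets), with a point per gene, red at an unadjusted p-value under 0.05, a black line at the median of the list and a grey band over the middle 50% of all genes tested. The medians of histones, folate and purine synthesis and ribosome biogenesis lie to the right of the band, and those of interferon-stimulated genes, immediate early genes and chemokines to its left.

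The differences of the biosynthetic lists were small and nearly all in 1 direction. Ribosome biogenesis genes were higher in 29 of 30 members, 10 of them at an unadjusted p-value under 0.05 beside 5.99% of all genes, with a median of 0.29 that was 0.42 without library 3. *Dkc1*, the pseudouridine synthase of small nucleolar RNPs, counted 1272, 1332 and 1462 in the pre-malignant libraries and 2133, 1997 and 1581 in the de novo expanded libraries, a log2 fold change of 0.48 (SE 0.13). Library 3 was the nearest of the expanded libraries to the pre-malignant clones in this gene and, by its median deviation of -0.10, lay below the 6-library mean over the list. Cytosolic ribosomal proteins were higher in 31 of 32 members with a median of 0.18, and *Rplp1* counted 5791, 6256 and 6635 against 8482, 7477 and 7943.

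Replication-dependent histones were higher in all 24 tested members, with a median of 0.38 and 9 members at an unadjusted p-value under 0.05 beside 5.99% of all genes. The median member lay 0.62 and 0.26 above the 6-library mean in de novo expanded libraries 1 and 2 and at -0.24 in library 3, so the difference rested on the first 2, and the median was 0.63 without library 3. *Hist1h2bb* counted 1907, 2202 and 2429 against 4375, 3931 and 2339, and *Hist1h4d* 3744, 4220 and 5221 against 9161, 7323 and 5023. In both genes library 3 fell inside the pre-malignant range. Histone genes are near-identical copies, and how their reads were split is uncertain.

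Of the 33 DNA replication genes, 29 were higher with a median of 0.21, and *Lig1*, the replicative DNA ligase, counted 3009, 3210 and 3283 against 3883, 4093 and 3965, a log2 fold change of 0.33 (SE 0.08). Mitosis genes were higher in 26 of 30 members, with 1, *Birc5*, at an unadjusted p-value under 0.05, a smaller share than the 5.99% of all genes. Their median was 0.23, or 0.37 without library 3, and the median deviation of library 3 from the 6-library mean, -0.20, lay within the pre-malignant range of -0.37 to 0.05. G1 cyclins and CDK inhibitors had a median of 0.20, or 0.32 without library 3. Among them, *E2f2* was at 0.53 (SE 0.17) and the CDK inhibitor *Cdkn2d* at 0.69 (SE 0.24).

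Purine and folate enzymes were higher in 22 of 23 members with a median of 0.30. *Hprt*, the purine salvage enzyme on the X chromosome, counted 919, 1047 and 1060 against 1635, 1550 and 1505, a log2 fold change of 0.63 (SE 0.10, DESeq2 adjusted p = 0.000962). *Gart*, a de novo purine enzyme, counted 2009, 2220 and 2302 against 3406, 2968 and 2867, and *Mthfd1*, which interconverts folates, was at 0.47 (SE 0.15).

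Oxidative phosphorylation genes were higher in 27 of 27 members with a median of 0.24 and 6 at an unadjusted p-value under 0.05 beside 5.99% of all genes. *Cox6c*, a subunit of cytochrome c oxidase, counted 1024, 1193 and 1112 against 1553, 1684 and 1858. Glycolysis and hypoxia genes were higher in 23 of 28 members, among them *Eno1* at 0.55 (SE 0.10) and *Ldha* at 0.53 (SE 0.13). Of the 28 genes of cholesterol synthesis and uptake, 23 were higher with a median of 0.24. *Sqle*, squalene epoxidase, counted 29.9, 81.4 and 34.9 against 209, 200 and 90.8, and the pathway's transcription factor *Srebf2* counted 830, 956 and 929 against 1515, 1405 and 1224. Their log2 fold changes were 1.80 (SE 0.48) and 0.61 (SE 0.12), and library 3 was the lowest of the expanded libraries in both.

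Genes of myeloid maturation did not share 1 direction. Monocyte and macrophage genes were lower in 14 of 17 members with a median of -0.47, 5 of them at an unadjusted p-value under 0.05 beside 5.26% of all genes. *Csf1r*, the M-CSF receptor, counted 1375, 1734 and 2234 against 754, 1172 and 179, and its log2 fold change of -1.69 (SE 0.62) was -0.89 without library 3. Of the primary granule genes, 8 of 14 were higher with a median of 0.08, which was -0.25 without library 3. Their summed level was 143538 to 161818 in the pre-malignant libraries and 61100, 84901 and 334298 after expansion. Of the secondary granule and late neutrophil genes, 13 of 17 were higher. *Ltf*, lactoferrin, counted 15.0, 29.4 and 5.66 against 107, 35.1 and 93.6, and *Chil3*, a chitinase-like protein, counted 47.0, 43.6 and 51.9 against 94.9, 361 and 214. These 2 genes had no overlap between the groups, which the rule that named them required. The median of 0.29 of the secondary granule and late neutrophil list was 0.05 without library 3.

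Among stem and progenitor genes, 10 of 16 were higher. *Hlf*, a bZIP factor of hematopoietic stem cells, counted 11.8, 18.0 and 29.3 against 120, 130 and 35.6, with a log2 fold change of 2.10 (SE 0.58) that was 2.70 without library 3. *Msi2*, an RNA-binding protein of the same cells, counted 265, 833 and 249 against 703, 1145 and 1284, and the groups overlapped. *Bmi1*, a Polycomb subunit, counted 463, 508 and 507 against 626, 748 and 844, at 0.58 (SE 0.14). Growth factor receptors were lower in 12 of 16 members with a median of -0.36, among them the IL-6 receptor *Il6ra* at -0.69 (SE 0.22). The exceptions included the TGF-beta receptor *Tgfbr2* at 0.81 (SE 0.25).

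Homing receptors were higher in 14 of 21 members, 5 of them at an unadjusted p-value under 0.05 beside 5.99% of all genes. *Itga4* and *Itgb1*, which together form the integrin VLA-4, were at 0.44 (SE 0.09) and 0.33, and *Itga4* counted 4473, 4683 and 4317 against 6188, 6479 and 5680. Among F-BAR and actin genes, 19 of 25 were higher, whereas *Fnbp1l* itself was lower. *Cnn3*, an actin-binding calponin, counted 350, 533 and 391 against 802, 843 and 1374, a log2 fold change of 1.22 (SE 0.25).

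The remaining lists are given by their counts. The stress lists (heat shock chaperones, the integrated stress response and p53 targets) were higher in 8 of 18, 9 of 16 and 10 of 18 members. BCL2 family and Polycomb genes were split evenly, with 6 of 12 and 10 of 20 higher. Of the MYC, MAX and MXD network 4 of 11, of the JAK-STAT feedback genes 4 of 15, of the myeloid transcription factors 3 of 18 and of the serpins 3 of 5 were higher, with *Serpina3f* and *Serpina3g* as the lower ones. Without library 3 the medians went from -0.09 to 0.01 for heat shock chaperones, from 0.17 to 0.37 for the integrated stress response, from 0.04 to 0.12 for p53 targets and from 0.02 to 0.15 for the BCL2 family. They went from 0.01 to 0.04 for Polycomb genes, from -0.10 to -0.22 for the MYC network, from -0.28 to -0.15 for JAK-STAT feedback and from 0.26 to 0.07 for the serpins.

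De novo expanded libraries 1 and 2 differed from each other about as much as the pre-malignant libraries did, and library 3 differed more. The median absolute log2 difference per gene was 0.231 between libraries 1 and 2, 0.223 to 0.241 among the pre-malignant libraries, and 0.402 and 0.356 between library 3 and libraries 1 and 2. With library 3, the median SD per gene was 0.287 among the de novo expanded and 0.200 among the pre-malignant libraries on the log2 scale. Libraries 1 and 2 shared 69 genes at least 2-fold above and 68 at least 2-fold below all of the other 4 libraries. Libraries 1 and 3 shared 5 and 51, and libraries 2 and 3 shared 8 and 45. The genes in the following 3 paragraphs were in part chosen after their values were seen.

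*Lmna*, *Clec10a*, *S100a6*, *S100a10*, *Ahnak* and *Vim* were high in libraries 1 and 2 of the de novo expanded clones and not in library 3. *Lmna*, which encodes the nuclear lamins A and C, counted 22.4, 30.3 and 27.4 in the pre-malignant libraries and 593, 869 and 9.36 in the de novo expanded libraries. *Clec10a*, a galactose-binding lectin of macrophages and dendritic cells, counted 26.7, 45.5 and 47.2 against 819, 844 and 24.3. Libraries 1 and 2 were thus far above and library 3 below every pre-malignant library in both genes. The fit of all 6 libraries gave log2 fold changes of 2.67 (SE 1.52) and 2.71 (SE 1.26), and without library 3 they were 4.71 and 4.39, each with a limma adjusted p of 6.12e-05. Both genes were named for their small p-values in the fit without library 3, so these p-values are no independent evidence. *S100a6* and *S100a10*, calcium-binding proteins, counted 565 and 602 and 2484 and 3398 in libraries 1 and 2, against 14.2 to 33.1 and 603 to 858 before expansion. In library 3 they counted 27.1 and 260. The large scaffold gene *Ahnak* counted 2902, 2680 and 3223 against 11282, 15304 and 892, and *Vim*, vimentin, 13634, 12634 and 14913 against 21829, 23890 and 5019. The list of F-BAR and actin genes did not divide the libraries in this way, with median deviations of 0.04, 0.11 and 0.06 from the 6-library mean in de novo expanded libraries 1 to 3.

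*Ccnd1*, *Ccnd2*, *Flt3* and *Ccr2* were also highest in libraries 1 and 2 and lowest in library 3. The D-type cyclins, which drive entry into S phase, counted 142, 191 and 320 against 1020, 727 and 7.49 for *Ccnd1*, and 223, 262 and 213 against 859, 707 and 22.5 for *Ccnd2*. Library 3 lay far below every pre-malignant library in both cyclins. *Flt3*, a receptor of multipotent progenitors, counted 1540, 1145 and 1142 against 3120, 4135 and 1051, and the chemokine receptor *Ccr2* 921, 965 and 1286 against 2771, 2560 and 251. Other receptors did not follow, and *Csf3r*, the G-CSF receptor, counted 1802, 1799 and 1467 against 635, 824 and 2745. The growth factor receptor list lay at median deviations of -0.30, 0.07 and 0.13 in de novo expanded libraries 1 to 3. The MAPK feedback genes *Spred1* and *Spred2* counted 352, 361 and 510 against 859, 834 and 224, and 249, 239 and 302 against 458, 489 and 134. The 9 tested genes of that list had a median of 0.13 with library 3 and 0.85 without it.

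*Mpo*, *Elane*, *Cebpe* and *Gfi1* had the opposite order. *Mpo*, myeloperoxidase, counted 86528, 97342 and 94584 in the pre-malignant libraries and 22991, 37197 and 226362 in the de novo expanded libraries. *Elane*, neutrophil elastase, counted 11566, 11523 and 11213 against 2077, 3732 and 30780. These are among the most abundant mRNAs of promyelocytes. Without library 3 the log2 fold changes were -1.66 and -2.04, with limma adjusted p-values of 0.00106 and 0.00049, and with it they were -0.68 (SE 0.74) and -0.88 (SE 0.87), positive in DESeq2 and edgeR. *Mpo* and *Elane* too were named from the calls without library 3, and their p-values in that fit are no independent evidence. The transcription factors of that branch, *Cebpe* and *Gfi1*, counted 511, 459 and 394 against 120, 226 and 1283, and 2249, 2290 and 1970 against 1034, 1310 and 4458. The factor *Irf8* of the monocytic branch counted 4337, 6095 and 7772 against 5495, 6038 and 906. Library 3 was the highest of the 6 in *Mpo*, *Elane*, *Cebpe* and *Gfi1* and the lowest in *Irf8*. Not every granule gene had this order, since *Ltf* and *Chil3* were higher in libraries 1 and 2 than before expansion and *Ctsg*, cathepsin G, counted 7607, 12902 and 12580 against 12869, 13092 and 17171. The summed level of the neutrophil marker list was 101161 to 111900 in the pre-malignant libraries and 27155, 43536 and 265149 after expansion, and *Mpo* and *Elane* are its most abundant members. Beside these, library 3 counted 2095 for *Vegfa* against at most 708 elsewhere, 220 for *Bcl2* against at least 1100, and 1013 for *Nkg7*, a granule gene of cytotoxic lymphocytes, against at most 153.

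**Figure D4:**
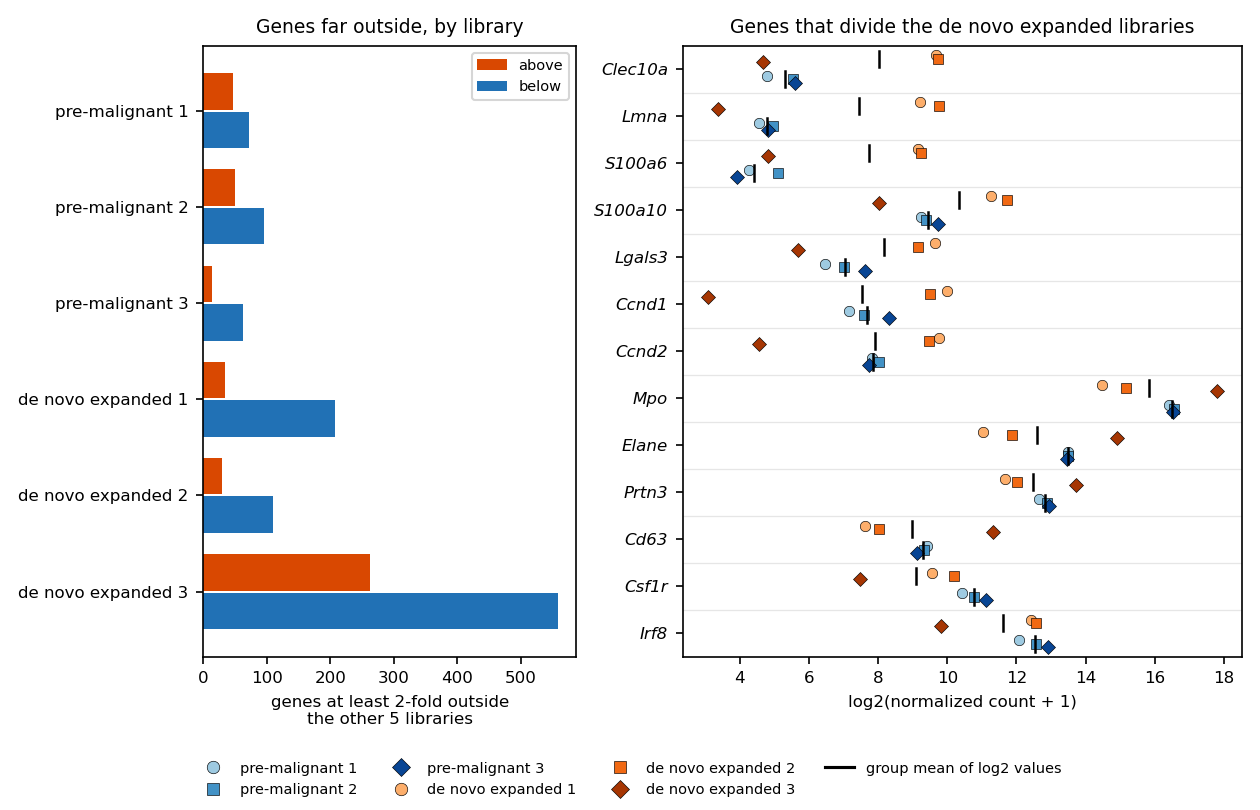
Left, number of genes at least 2-fold above (orange) or below (blue) all of the other 5 libraries, by library. Right, levels as log2(normalized count + 1) with 1 point per library, where Clec10a, Lmna and Ccnd1 are highest in de novo expanded libraries 1 and 2, and Mpo, Elane and Prtn3 are highest in library 3.

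Of all chromosomes, chromosome 14 had the widest range of median level between the 6 libraries. In 348 genes of chromosome 14 with a mean of at least 50, the median deviation from the 6-library mean was -0.27 in pre-malignant library 1 and -0.14 in de novo expanded library 3 on the log2 scale, and 0.09 to 0.13 in the other 4. The range between libraries was 0.398, and the next largest, on the X chromosome, was 0.127. In windows of 5 Mb with at least 10 genes, the median deviation from the 6-library median was at or below -0.25 in both libraries in 6 of 353 windows, all of them on chromosome 14. These windows lie between 25000001 and 65000000 (GRCm38.p6). Over the 193 genes of this segment that deviation was -0.52 in pre-malignant library 1 and -0.36 in de novo expanded library 3, beside 0.05 to 0.11 in the other 4. Both were the 2 lowest libraries in 134 of the 193 genes (69.4%), beside 7 of 155 (4.52%) on the rest of the chromosome and 1047 of 10076 (10.4%) on the other chromosomes. This segment was chosen after its values were seen, and it crosses the groups, since it holds 1 library of each. The labels do not tie these columns to a color code, and whether both are 1 clone was not tested. *Irf9*, the DNA-binding subunit of the interferon factor ISGF3, lies within the segment and counted 762, 1066 and 1162 against 626, 556 and 485. *Cebpe* and *Ctsg*, whose counts are given above, also lie within the segment, and its part in their levels was not tested.

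Other genes joined a pre-malignant with a de novo expanded library as well. *App*, the amyloid precursor protein gene, counted 1268, 14.2 and 75.5 in the pre-malignant and 10.5, 80.1 and 2614 in the de novo expanded libraries, so pre-malignant library 1 and de novo expanded library 3 were high. *Hook1*, which encodes a microtubule-binding adaptor, counted 2.14, 2.84 and 400.1 against 3.52, 492 and 0, high in pre-malignant library 3 and de novo expanded library 2. Both genes were chosen after their values were seen, and both were also high in the stably expanded clone that is set beside these libraries below. Pre-malignant library 1 and de novo expanded library 3 shared 65 genes at least 2-fold above and 36 at least 2-fold below all of the other 4 libraries. The other 8 pairs across the groups shared 1 to 25 above and 3 to 24 below.

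**Figure D5:**
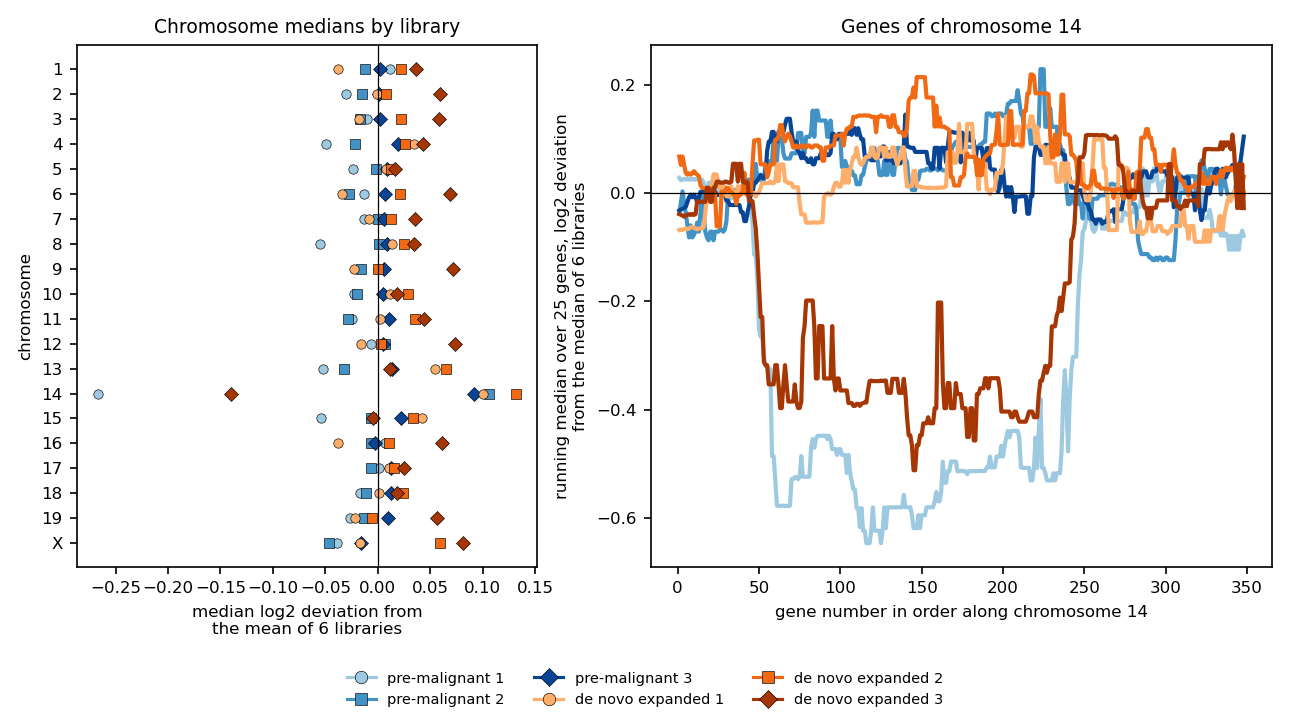
Left, median log2 deviation from the 6-library mean over the genes of each chromosome, with 1 point per library. Right, running median over 25 genes of the log2 deviation from the 6-library median for the 348 genes in order along chromosome 14, where pre-malignant library 1 and de novo expanded library 3 lie below the other 4 over a middle stretch and return to them at both ends.

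The leading genes were set beside clone 34BC-D, the stably expanded clone of the same endpoint mice, in CPM, the reads of a gene scaled to a common library total, and with no test. *Cd81* was at 87.8 to 97.6 CPM in the 3 stably expanded libraries, beside 37.2 to 43.2 CPM in the pre-malignant and 73.0 to 92.0 CPM in the de novo expanded libraries. *Igkv12-41* had no read in these libraries either. *Mrap*, at 2.02 to 4.05 CPM, was above its pre-malignant and partly below its de novo expanded levels. *Fnbp1l* did not follow this order, and was at 143 to 164 CPM, within the pre-malignant range of 125 to 193 CPM and above the 49.5 to 63.5 CPM of the de novo expanded libraries. *Fos* varied widely among the stably expanded libraries, with 86.4, 313 and 274 CPM, all below the pre-malignant range of 482 to 645 CPM. *Zfp36*, at 55.7 to 108 CPM, and *Dusp1*, at 59.8 to 133 CPM, were likewise below their pre-malignant ranges of 162 to 220 and 163 to 203 CPM. *Lmna*, at 5.42 to 16.4 CPM, and *Mpo*, at 7545 to 8915 CPM, had neither the high nor the low extreme of the de novo expanded libraries. *Cebpe*, at 72.4 to 139 CPM, and *Gfi1*, at 231 to 356 CPM, spanned the levels of de novo expanded library 3, 89.5 and 311 CPM. Their pre-malignant ranges were 28.2 to 36.3 and 141 to 166 CPM. *Irf8*, at 122 to 259 CPM, lay between library 3 (63.2 CPM) and the pre-malignant range of 308 to 556 CPM. *Ccr2* varied from 18.6 to 72.4 CPM, beside 17.5 CPM in library 3 and 65.4 to 92.1 CPM before expansion. On the segment of chromosome 14 the stably expanded libraries had medians of 0.03 to 0.07. *App*, at 97.4 to 283 CPM, and *Hook1*, at 29.4 to 43.45 CPM, were high in all 3 libraries of clone 34BC-D too. The high pre-malignant and de novo expanded libraries were at 90.0 and 182 CPM for *App* and at 28.6 and 35.2 CPM for *Hook1*.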

How the data were processed

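RNA-Seq was analysed in 6 libraries of sorted splenocytes, 3 per group. According to the paper and the labels, the authors demultiplexed with bcl2fastq, trimmed with Trim Galore 0.6.4, aligned with STAR 2.6.1d to GRCm38.p6 with GENCODE annotation and counted with featureCounts 1.6.4. The authors then scaled the counts with the size factors of DESeq2, run on these 6 libraries without independent filtering and without handling of outliers, and deposited the normalized counts as the signal per library. Other columns hold the authors' DESeq2 means, log2 fold changes, their errors, test statistics and p-values, which were not used here. Normalized counts divided by a library's smallest step came out as whole reads (tolerance 0.05) in at least 99.99% of nonzero values. The table lists 55401 genes, of which 41164 had a read. Depths of 11983460 to 15551196 reads on genes limit the precision of low genes, and a count of 0 allows up to 3 reads, which covers counting error only.

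Log2 values of the normalized count + 1 were tested two-sided with limma 3.58.1 in R 4.3.3, using the trended empirical Bayes variance. The p-values of the 14195 genes with a mean of at least 10 were adjusted by the Benjamini-Hochberg method. This scale understates the fold change of low genes. A call needed an adjusted p-value under 0.05 and 2-fold. The test was tested on simulated data for this comparison with 14195 genes, 200 of them changed, and recovered 25 at 2-fold, 148 at 4-fold and 168 at 8-fold, with 2, 6 and 19 false calls. The simulation drew each gene independently, so no simulated library stood apart over many genes together as de novo expanded library 3 did. Recovery with such a library was not tested. As alternatives, the pseudocount was set to 0.1 or 5, the filter was dropped or raised to a mean of 50, and the others were quantile normalization, median centring, edgeR 4.0.16 and DESeq2 1.42.0 on recovered reads, array weights, a fit of all 9 libraries, no fold limit and leaving out each library. Tables and figures used Python 3.11.15, pandas 2.3.3, numpy 2.4.6 and matplotlib 3.10.9.

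The comparison, the 33 gene lists and the 11 marker lists were chosen with earlier results of these data known. Named genes carry a symbol that is no clone number and no pseudogene. They are the 12 largest differences in each direction at an unadjusted p-value under 0.05, 2-fold and without overlap, the 6 smallest p-values, the sort and vector genes, up to 4 members of each list by p-value, the 8 farthest genes of the library that stood apart, 6 genes per direction called without it and 10 genes called by edgeR or DESeq2. Other list members and genes were named after their values were seen. Promoter sequences are RefSeq windows of GRCm38.p6, present for 24 of the 29 tested immediate early genes. A few genes that meet the rule for named genes are not reported here.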

Additional observations from a re-analysis of the deposited data

How the results depend on the processing

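No paired analysis was possible because the columns of the deposited table carry a group and no clone or mouse, and the labels give no replicate numbers that tie libraries of the groups to each other. Genes with values shared across the groups do not settle the pairs and were not used to set them. Genes called numbered 0 in limma, 64 in DESeq2, 24 with array weights, 5 in the fit of all 9 libraries, 5 without a filter on low values, 0 without the fold limit, and 0 to 215 when a library was left out, with 215 without de novo expanded library 3 and 0 without any of the other 5. The 109 genes that were 2-fold higher at an unadjusted p-value under 0.05 became 235 with array weights, 58 at a mean of at least 50, 260 without a filter and 166 after quantile normalization, and 84 to 258 when a library was left out. The 278 lower genes became 464, 72, 1328 and 205, and 158 (without pre-malignant library 1) to 452 (without de novo expanded library 3). The share of higher genes among both was 28.2%, and it was 44.7% after quantile normalization, 39.1% in DESeq2, 44.6% at a mean of at least 50, 16.4% without a filter, 41.0% without pre-malignant library 1 and 36.3% without de novo expanded library 3. The 2707 genes without overlap became 4615 without a filter and 3641 to 5744 when a library was left out, with 4262 without pre-malignant library 3 and 5744 without de novo expanded library 3, where fewer values have to be ordered. The 92 genes given with a fold change were tracked through the alternatives, 81 of them at a mean of at least 50. *Mpo* and *Elane* were lower in limma and at log2 fold changes of 0.041 and 0.093 in DESeq2 and 0.011 and 0.061 in edgeR. No other of the 92 was reversed. Genes given by their counts alone also turned, among them *Cebpe* (-0.47 in limma and 0.26 in DESeq2), *Gfi1* (-0.25 and 0.06), *Ccnd1* (-0.16 and 1.42), *Vcam1* (-1.18 and 0.50) and *Nkg7* (-0.27 and 1.57). Of the 33 lists, the medians of immediate early genes, chemokines, interferon-stimulated genes, ribosome biogenesis and histones kept their direction in every alternative, whereas that of MAPK feedback genes turned without de novo expanded library 1 or 2, that of MHC class II genes at a mean of at least 50, and that of primary granule genes with array weights or without library 3. The medians of BCL2 family, heat shock, p53 target, Polycomb and serpin genes turned in 6, 5, 4, 4 and 1 of the alternatives. The causes were not tested.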

Other observations

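On chromosome 13, the 5-Mb window from 20000001 to 25000000 (GRCm38.p6), which holds a cluster of histone genes, had a median deviation from the 6-library median of 0.57 in de novo expanded library 1 and 0.27 in library 2 on the log2 scale, beside -0.27 in pre-malignant library 1 and -0.19 in de novo expanded library 3, over 70 genes. On chromosome 6, the window from 5000001 to 10000000 was at 0.70 in de novo expanded library 3, over 11 genes. These windows were chosen after their values were seen.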
